A study of Mus musculus with 6 samples.

Results

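Transcripts of 9 complement components (C1qa, C1qb, C1qc, C1ra, C1s1, C3, C4b, Cfb and C3ar1) were measured by RNA-seq in hypoxic primary neonatal mouse cardiomyocytes (NMCMs) with and without β-sitosterol (β-SITO). They were chosen by name as the rows of these symbols in a gene count table, and all 9 of 9 were found among its 57010 genes. The study examined whether β-SITO, a plant sterol, protects the heart after myocardial infarction, and RNA-seq was used to compare hypoxic (HO) cells that received vehicle with hypoxic cells that received β-SITO. The HO + Vehicle group had 3 libraries (V1 to V3) and the HO + β-SITO group had 3 (T4 to T6). According to the methods, the cells came from hearts of newborn C57BL/6 mice by enzymatic digestion and were parted from fibroblasts by the faster adhesion of the latter, so other cardiac cells can remain in such a culture. All 6 libraries were hypoxic and no normoxic library was used here, and the dose and duration of β-SITO for these libraries are not given in the sources used here. The labels do not say whether the libraries of a group came from separate cultures, so p-values measure only the spread between these libraries, which may be technical. Library names of the HO + β-SITO group carry a suffix that those of the HO + Vehicle group lack, and a separate preparation cannot be told apart from the treatment.

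Complement is a cascade of plasma and tissue proteins that tags cells and debris for removal, calls in leukocytes and can lyse membranes. The classical pathway starts when C1q, built from A, B and C chains, binds its target and activates the proteases C1r and C1s, which cleave C4 and C2. The alternative pathway runs on C3 and factor B, and both pathways meet at the cleavage of C3, whose small fragment C3a signals through the receptor C3ar1. In the heart, as in other tissues, macrophages are the main makers of C1q, while fibroblasts and other stromal cells can make C1r, C1s, C3 and the C1 inhibitor.

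The libraries held 16694734 to 18460522 counts, 14799 genes passed the filter on low counts, and the biological coefficient of variation between libraries of a group was 6.52%. Levels are given as CPM, counts scaled by the TMM-normalized size of each library, and a gene was called when edgeR's quasi-likelihood test gave a Benjamini-Hochberg adjusted p under 0.05 and the change exceeded 2-fold. Transcripts of the 12 cardiomyocyte markers were all detected, with a summed level of 6387 to 7399 CPM in the HO + Vehicle libraries. Library T4 stood apart with 5804 CPM of these markers against 9758 and 9891 CPM in T5 and T6. Markers of fibroblasts (10 genes, 30033 to 31276 CPM in vehicle and 45066 to 46197 CPM in β-SITO), of macrophages (16 genes) and of endothelial cells (8 genes) were also present. Of 7 hepatocyte markers, 6 had too few counts to be tested, Alb among them with 0 to 2 counts per library. The other, Ahsg, had 174, 151 and 114 counts in vehicle and 646, 729 and 770 in β-SITO and was called higher (log2 fold change 2.05), and its part in the results was not tested.

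Of the 9 components, 4 were lower in the HO + β-SITO group (Cfb, C3, C1s1 and C1ra), 3 were higher (C1qa, C1qc and C1qb) and 2 were not called (C4b and C3ar1). Among all tested genes, 10.1% were called lower and 12.8% higher. The components and the gene lists below were chosen with earlier results of these data known, so such shares are not an independent comparison. By adjusted p alone, 5 components were lower and 4 higher, a threshold that 66.8% of all tested genes passed in either direction. For each of the 9 components the vehicle and β-SITO libraries had separate ranges, 5 lying below vehicle and 4 above, as was true of 70.5% of all tested genes. The median log2 fold change was -0.33 over the 9 components and -0.01 over all tested genes. In bulk RNA, fewer cells of a type and less RNA per cell cannot be told apart.

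**Figure D1:**
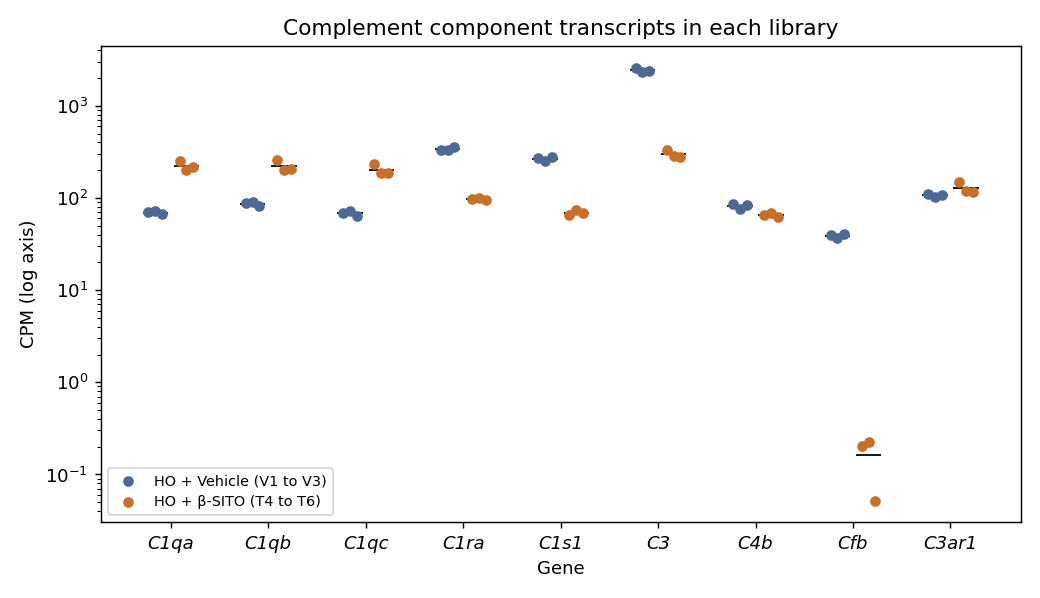
Level of each complement component in each library, in CPM on a log axis, for the HO + Vehicle libraries V1 to V3 (blue) and the HO + β-SITO libraries T4 to T6 (orange, T4 at the left), with a bar at each group mean. The C1q chains lie higher in all 3 β-SITO libraries, C1ra, C1s1 and C3 lie lower, Cfb falls from about 39.1 to 0.161 CPM, and C4b and C3ar1 differ little.

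C1qa, C1qb and C1qc encode the A, B and C chains of C1q, the recognition unit of the classical pathway, and lie together within 18675 bp of chromosome 4 (GRCm39 4:136607440 to 136626114, minus strand). C1qa was at 69.5, 71.3 and 66.2 CPM in V1 to V3 and at 254.0, 203.2 and 214.2 CPM in T4 to T6. C1qb was at 88.6, 91.0 and 80.9 CPM in the vehicle libraries and at 259.1, 202.5 and 206.1 CPM in the β-SITO libraries. C1qc was at 67.8, 72.4 and 64.2 CPM against 235.2, 186.8 and 186.4 CPM. For each chain every β-SITO library was above every vehicle library, and T4 was the highest of the 6. The log2 fold changes were 1.70 (SE 0.079, 95% interval 1.53 to 1.87) for C1qa, 1.36 (SE 0.0874, 1.17 to 1.54) for C1qb and 1.57 (SE 0.0869, 1.39 to 1.76) for C1qc, with edgeR adjusted p-values of 3.41e-11, 1.83e-09 and 2.82e-10. Without T4 the log2 fold changes were 1.60, 1.24 and 1.45, and all 3 chains were still called higher. Of all tested genes, 872 had a larger log2 fold change than C1qa, 992 than C1qc and 1244 than C1qb.

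The ratios between the chains within a library also had separate ranges in the groups. The count of C1qb relative to that of C1qa was 1.27, 1.28 and 1.22 in V1 to V3 and 1.02, 0.996 and 0.962 in T4 to T6, a difference of -0.34 on the log2 scale, with no overlap between the groups (p = 0.1 by a two-sided exact permutation test, which cannot go below this value with 3 libraries a group). The ratio of C1qc to C1qa differed less, by -0.12 on the log2 scale, again with no overlap (exact permutation p = 0.1). Counted per length of transcript, C1qb made up 44.0 ± 0.490% (SD, n = 3) of the summed C1q signal in vehicle and 38.9 ± 0.455% in β-SITO, C1qa 36.6 ± 0.514% and 41.0 ± 0.741%, and C1qc 19.4 ± 0.310% and 20.0 ± 0.333%. Per length, C1qb thus led in vehicle and C1qa in β-SITO. By counts alone the lead in β-SITO was not uniform, with C1qb above C1qa in T4 (ratio 1.02). The share of C1qc depended on the length assigned to it, 1931 bases for all its annotated exons and 1203 bases for its longest coding transcript, with which it came to 27.9% and 28.6%.

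The promoters of C1qb and C1qc are shown because these neighbouring genes rose together and because both hold the core letters bound by PU.1, a factor of the macrophage lineage. The windows are the 250 bases before the annotated start (RefSeq, GRCm38.p6, minus strand, chr4:136886201-136886450 for C1qb and chr4:136892915-136893164 for C1qc), and capitals mark matches to the motifs searched.
C1qb: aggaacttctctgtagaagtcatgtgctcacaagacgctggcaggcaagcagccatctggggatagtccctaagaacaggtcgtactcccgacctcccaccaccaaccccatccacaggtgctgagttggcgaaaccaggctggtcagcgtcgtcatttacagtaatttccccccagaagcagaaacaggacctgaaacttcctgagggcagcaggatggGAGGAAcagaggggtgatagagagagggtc
C1qc: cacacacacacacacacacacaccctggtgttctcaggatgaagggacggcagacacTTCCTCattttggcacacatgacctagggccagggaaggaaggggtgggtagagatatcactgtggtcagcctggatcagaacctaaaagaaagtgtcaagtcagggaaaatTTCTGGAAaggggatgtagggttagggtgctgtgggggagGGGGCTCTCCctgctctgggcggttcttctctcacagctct
In C1qb, GAGGAA stands 30 to 25 bases before the start. In C1qc the same core lies on the opposite strand 193 to 188 bases before the start, followed by a C/EBP consensus match (TTNNGNAA) 81 to 74 bases and an NF-κB consensus match 41 to 32 bases before it. Searched on both strands in 32536 promoter windows of the same length, the PU.1 core occurred in 23.4%, the C/EBP consensus in 36.8% and the NF-κB consensus in 7.28%. These are matches of letters and not measured binding.

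The summed level of macrophage transcripts rose as that of C1q did, but single markers differed widely. The summed level of the 16 macrophage markers was 1120 to 1244 CPM in vehicle and 3044, 2525 and 2489 CPM in T4 to T6, highest in T4 as were the C1q chains. Lyz2 was the largest part of this sum, at 585 to 704 CPM in vehicle and 1296 to 1604 CPM in β-SITO. Of the 16 markers, 11 were called higher, 2 lower and 3 not called, against 12.8% higher and 10.1% lower among all tested genes. Csf1r, the receptor for macrophage colony-stimulating factor, had a log2 fold change of 1.54 and Lyz2, lysozyme, of 1.12, whereas Adgre1, which encodes F4/80, overlapped between the groups at -0.06. The markers called lower were Fcgr1 (-2.18) and Timd4 (-1.78), named after their values were seen. The largest rises were those of Cd163 (5.19, with 0 to 2 counts per vehicle library) and Mrc1 (4.79). Ptprc (-0.03) and Aif1 (-0.77) were not called. These too were named after their values were seen. Ratios of C1q to these markers were chosen after the data were seen. Relative to Csf1r, the summed C1q level differed by -0.01 on the log2 scale between the groups (exact permutation p = 0.9). Relative to Cd68 the difference was -0.07 (exact permutation p = 0.2). Csf1r and Cd68 are also among the 5 genes nearest to the C1q profile, given below, so small differences follow from that likeness. Relative to the sum of all 16 markers the summed C1q level was 0.35 higher in β-SITO. It was 0.41 higher relative to Lyz2, not a separate measure as Lyz2 is the largest part of that sum, and 1.59 higher relative to Adgre1. The groups did not overlap in any of these cases (exact permutation p = 0.1 for each). The part of macrophage number or state in the C1q result was not tested. Endothelial markers rose as well, 8 of 8, from 192 to 221 CPM in vehicle to 797 to 830 CPM in β-SITO. Of the 10 fibroblast markers 2 were called higher and 0 lower, against the same 12.8% and 10.1%. By adjusted p alone 7 of them were higher and 2 lower, a threshold that 66.8% of all tested genes passed. Of the 12 cardiomyocyte markers 3 were called higher and 0 lower.

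**Figure D2:**
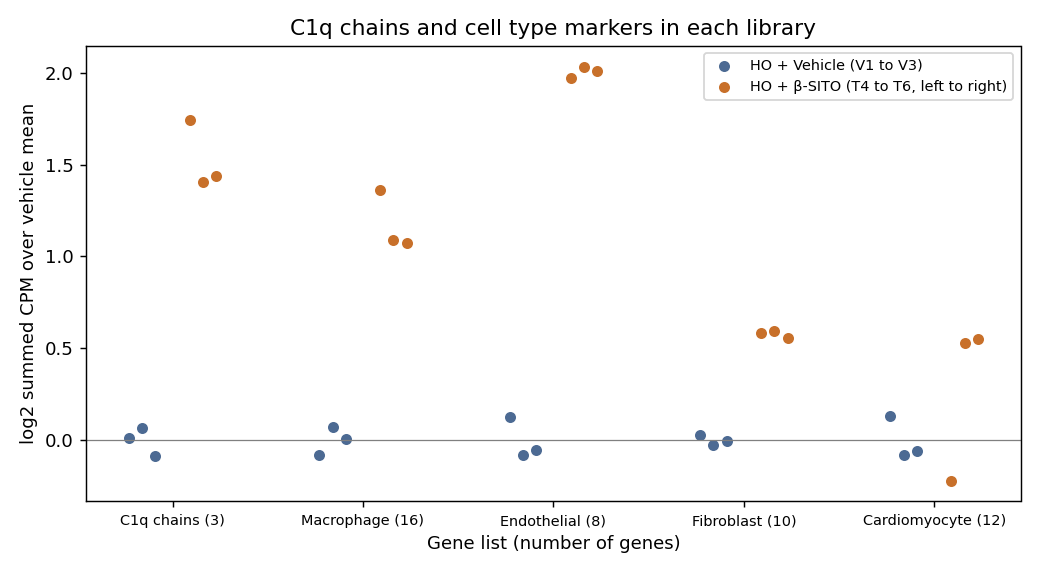
Summed level of the 3 C1q chains and of 4 lists of cell type markers in each library, as log2 of the summed CPM over the vehicle mean (y axis), with the number of genes of each list on the x axis, HO + Vehicle in blue and HO + β-SITO in orange. C1q and macrophage markers are highest in T4, endothelial markers lie near 2 in all 3 β-SITO libraries, and cardiomyocyte markers are lowest in T4. Lyz2 is the largest part of the macrophage sum.

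The 5 genes with profiles most like the mean of the C1q chains, by Euclidean distance of centred log2 CPM over the 6 libraries among 9685 genes, were Lgals3 (distance 0.105), Maf (0.111), Csf1r (0.114), Cd68 (0.127) and Ucp2 (0.131). Their log2 fold changes lay between 1.54 and 1.62, close to those of C1q because of the way they were chosen. The list includes Csf1r and Cd68, which are macrophage markers also counted above.

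C1ra and C1s1 encode the proteases that C1q activates, C1r cleaving C1s and C1s cleaving C4 and C2, and they neighbour each other on chromosome 6 (GRCm39 6:124489364 to 124500402 on the plus strand and 6:124507304 to 124519318 on the minus strand). C1ra was at 327.7, 330.9 and 360.3 CPM in V1 to V3 and at 98.2, 100.4 and 95.9 CPM in T4 to T6. C1s1 was at 269.1, 252.9 and 274.8 CPM in vehicle and at 65.2, 73.1 and 69.2 CPM in β-SITO. Both proteases were thus lower in every β-SITO library, opposite in direction to the C1q chains. The log2 fold change was -1.79 (SE 0.0605) for C1ra and -1.94 (SE 0.0636) for C1s1, with edgeR adjusted p-values of 6.37e-13 and 4.40e-13.

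The near copies C1rb and C1s2 lie beside them and were lower still. C1rb had 245, 282 and 262 counts in vehicle and 2, 3 and 2 in β-SITO, a pooled ratio of 133 between the groups after scaling by library size (exact interval 64.2 to 331). C1s2 had 302, 233 and 280 counts against 0, 2 and 2, a ratio of 240 (93.4 to 883). These intervals cover counting error only. Of the 50-base stretches in the C1ra transcripts, 48.0% also occur in C1rb, and 21.8% of those in C1s1 also occur in C1s2. Reads of each pair can therefore be split or lost between copies. The values of all 4 genes are uncertain for this reason, by an amount that was not measured. In the whole cluster from C1rl to C1s2 (142973 bp), C1rl, a C1r-like protease, had a log2 fold change of -0.76 and was not called. The 6 other tested genes within 100 kb of the cluster were not called, with log2 fold changes of -0.40 to -0.06. Most tested genes were likewise not called, with 10.1% of them lower and 12.8% higher.

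The promoters of C1ra and C1rb are shown because the copies had such different log2 fold changes, -1.79 and -6.97. The part of the promoters in this difference was not tested. Both windows are the 250 bases before the start on the plus strand (RefSeq, GRCm38.p6, chr6:124512371-124512620 for C1ra and chr6:124570180-124570429 for C1rb), with motif matches in capitals.
C1ra: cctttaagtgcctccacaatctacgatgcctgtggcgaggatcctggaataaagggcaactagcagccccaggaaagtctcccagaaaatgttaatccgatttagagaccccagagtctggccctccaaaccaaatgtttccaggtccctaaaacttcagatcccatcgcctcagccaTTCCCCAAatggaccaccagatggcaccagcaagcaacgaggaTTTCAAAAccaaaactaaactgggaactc
C1rb: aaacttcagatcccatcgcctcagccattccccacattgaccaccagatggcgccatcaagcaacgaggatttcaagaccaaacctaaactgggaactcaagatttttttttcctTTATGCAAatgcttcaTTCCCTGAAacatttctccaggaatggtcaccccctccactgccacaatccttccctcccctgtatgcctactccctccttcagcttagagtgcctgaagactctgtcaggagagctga
The windows share a run of 34 bases that begins 99 bases before the start of C1ra and 250 bases before that of C1rb. Lined up on this run, most of the C1rb window falls after the C1ra start, where C1ra was not searched. C1ra holds 2 C/EBP matches, at 72 to 65 and 29 to 22 bases before the start. C1rb holds a C/EBP match at 135 to 128 bases and a match to the gamma-activated site (TTCNNNGAA) at 119 to 111 bases, a motif found in 7.04% of all windows. Both C1rb matches lie in the part without a searched counterpart in C1ra. The window of the other near copy, C1s2, whose log2 fold change was -7.77, held 0 motif matches.

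The C1 inhibitor, encoded by Serping1, inactivates C1r and C1s. Its level was 2035, 2031 and 1995 CPM in V1 to V3 and 481.3, 479.1 and 471.4 CPM in T4 to T6, a log2 fold change of -2.08 (edgeR adjusted p = 5.89e-14). It therefore fell along with its target proteases. Within libraries, the ratio of C1ra to Serping1 counts was 0.161 to 0.181 in vehicle and 0.204 to 0.210 in β-SITO, 0.29 higher on the log2 scale with no overlap (exact permutation p = 0.1). For C1s1 the difference was 0.14 and the groups overlapped (exact permutation p = 0.2).

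C3, the protein on which the complement pathways converge, is encoded on chromosome 17 (GRCm39 17:57510970 to 57535136, minus strand). Its transcripts were at 2594.8, 2350.1 and 2398.5 CPM in V1 to V3 and at 331.0, 286.8 and 279.7 CPM in T4 to T6. Even the highest β-SITO library was far under the lowest vehicle library. The mean of the vehicle libraries was 2447.8 ± 129.6 CPM (SD, n = 3) and that of the β-SITO libraries 299.2 ± 27.8 CPM, with a log2 fold change of -3.03 (SE 0.0774, 95% interval -3.20 to -2.87, edgeR adjusted p = 2.14e-14), or 8.18-fold lower. Of all tested genes, 454 had a lower log2 fold change.

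The promoter of C3 is shown because this was the most abundant component in vehicle and because its window held more matches to 1 motif than any other window examined. It spans chr17:57228137-57228386 on the minus strand (RefSeq, GRCm38.p6), and the capitals mark 3 C/EBP matches, 70 to 63, 58 to 51 and 45 to 38 bases before the start.
C3: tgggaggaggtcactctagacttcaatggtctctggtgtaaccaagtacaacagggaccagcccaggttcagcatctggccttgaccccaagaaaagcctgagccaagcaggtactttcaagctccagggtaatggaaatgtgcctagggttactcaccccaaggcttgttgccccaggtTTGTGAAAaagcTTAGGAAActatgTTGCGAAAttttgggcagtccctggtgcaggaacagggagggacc
At least 3 such matches occurred in 630 of 32536 windows (1.94%). Promoter windows were found for 6 of the 9 components, and not for C1qa, C4b or Cfb. Of those found, the window of C3ar1 held no match and C1s1 held C/EBP matches before both of its annotated starts. None of the windows examined for the components held a match to the interferon-stimulated response element (GAAANNGAAA, 2.98% of all windows) or to the LXR element DR4 (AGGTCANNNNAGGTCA, 0.0154%), which says only that these letters are not in this stretch.

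C4b encodes C4, the relative of C3 that C1s cleaves. Its level was 85.8, 75.3 and 83.4 CPM in V1 to V3 and 64.6, 68.2 and 62.3 CPM in T4 to T6. The groups did not overlap, but the change was small, with a log2 fold change of -0.33 (95% interval -0.47 to -0.18, edgeR adjusted p = 4.99e-04), and C4b was not called. C4a, annotated as a non-coding gene in the table, had 2 to 9 counts per library and was not tested, and 34.6% of the 50-base stretches of C4b occur in it as well. The within-library ratio of C4b to C4a differed by -0.04 on the log2 scale (exact permutation p = 1), a difference whose sign changed without V2 (0.28), T5 (0.11) or T6 (0.02).

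Cfb encodes factor B, which joins C3b to form the alternative pathway convertase, and lies on chromosome 17 (GRCm39 17:35075350 to 35081494, minus strand) beside C2, its classical pathway counterpart. It had 629, 592 and 652 counts in V1 to V3 and 4, 4 and 1 counts in T4 to T6, or 39.7, 37.1 and 40.4 CPM against 0.206, 0.225 and 0.0521 CPM. In β-SITO the transcript was close to the limit of 3 counts per library that a count of 0 allows, which is 0.154 to 0.169 CPM in these libraries. The pooled ratio after scaling was 245 (exact interval 129 to 537, counting error only), and the log2 fold change was -7.87 (edgeR adjusted p = 6.97e-15). Only 55 of all tested genes had a lower log2 fold change. C2 was lower too, at 34.4, 40.2 and 37.7 CPM in vehicle and 8.48, 6.75 and 7.86 CPM in β-SITO, a log2 fold change of -2.28 (edgeR adjusted p = 1.64e-11). Cfb and C2 share no 50-base stretch. Among 19 other tested genes within 100 kb of the stretch from C4b to C2 (169888 bp), 3 were called lower, 2 higher and 14 were not called. Among all tested genes the shares were 10.1% lower and 12.8% higher.

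C3ar1 encodes the receptor for C3a, found mainly on myeloid cells (GRCm39 6:122824097 to 122833120, minus strand). Its level was 111.2, 101.9 and 108.3 CPM in V1 to V3 and 149.5, 119.7 and 117.1 CPM in T4 to T6, highest in T4. The log2 fold change was 0.27 (95% interval 0.09 to 0.44, edgeR adjusted p = 0.0105), under 2-fold, so C3ar1 was not called. Without T4 the log2 fold change was 0.15 (edgeR adjusted p = 0.0663), and without V2 it was 0.24 (edgeR adjusted p = 0.0567). C5ar1, the receptor for C5a, rose from 22.8, 23.1 and 23.1 CPM to 91.5, 75.3 and 72.4 CPM (log2 fold change 1.79, edgeR adjusted p = 7.03e-11). As a result the count of C3ar1 relative to C5ar1 was 4.39 to 4.86 in vehicle and 1.59 to 1.63 in β-SITO, a difference of -1.52 on the log2 scale with no overlap (exact permutation p = 0.1).

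Levels can be set side by side between genes only per length of transcript, here as CPM per kilobase of annotated exons. In vehicle C3 led with 475.9 CPM per kb, followed by C1ra (113.9), C1s1 (84.9), C1qb (79.8), C1qa (66.4), C1qc (35.3), C3ar1 (24.9), C4b (14.3) and Cfb (13.8). The ranges of C1s1 and C1qb overlapped, as did those of C4b and Cfb. In β-SITO the order began with C1qa (215.2) and C1qb (204.6), whose ranges overlapped, followed by C1qc (105.0), C3 (58.2), C1ra (32.9), C3ar1 (29.9), C1s1 (22.1), C4b (11.4) and Cfb (0.0569). Here the ranges of C1ra and C3ar1 overlapped too. With the shorter length, C1qc came to 56.6 and 168.6 CPM per kb and kept its place in both orders.

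Summed over the 9 components the per-length level was 938.8, 888.6 and 900.4 CPM per kb in V1 to V3 and 768.4, 630.9 and 638.8 CPM per kb in T4 to T6. The make-up of this sum changed more than its size. C3 held 51.4 to 53.7% of it in vehicle and 8.38 to 8.84% in β-SITO, while C1qa went from 7.07 to 7.72% up to 31.0 to 32.2%, and C1qb from 8.26 to 9.42% up to 29.5 to 31.0%. C4b kept a similar share, 1.49 to 1.63% and 1.48 to 1.90%. These shares describe transcripts of a mixed culture and not proteins.

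**Figure D3:**
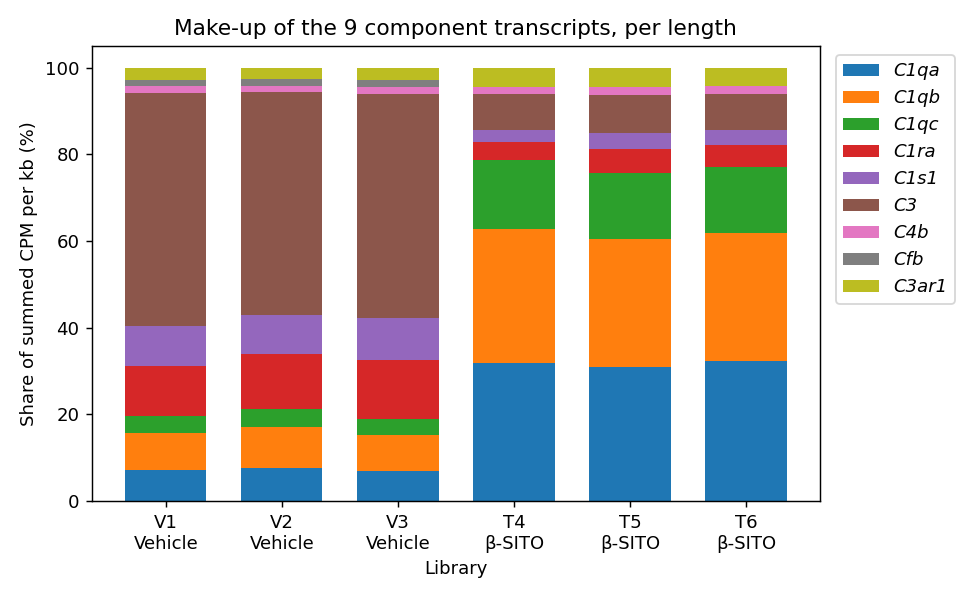
Share of each of the 9 components in their summed CPM per kb (y axis, percent) in each library. C3 fills 51.4 to 53.7% of the bar in the vehicle libraries and under 9% in the β-SITO libraries, where the 3 C1q chains take most of it.

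The rest of the pathway was examined as a list of 45 other complement genes, also chosen with earlier results of these data known. Of these, 26 were tested, with 5 called lower, 10 higher and 11 not called, against 10.1% lower and 12.8% higher among all tested genes. The median log2 fold change of the 26 was 0.68, against -0.01 over all tested genes. With adjusted p alone 7 were lower and 18 higher, a threshold that 66.8% of all tested genes passed in either direction. The 5 lower genes were C1s2, C1rb, C2, Serping1 and Clu, which encodes clusterin, a chaperone that blocks the membrane attack complex. Clu was at 2030, 1668 and 1713 CPM in vehicle and at 412.7 in T4, 718.5 in T5 and 695.8 CPM in T6, a log2 fold change of -1.57, and T4 was the lowest of the 6 libraries. Cfi, which encodes factor I, the protease that inactivates C3b, rose from 4.67, 4.76 and 4.52 CPM to 13.1, 8.60 and 10.7 CPM (log2 fold change 1.21).

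Upstream in the lectin pathway, Fcna, a ficolin that recognizes sugars, rose from 8, 12 and 9 counts to 108, 93 and 88 (log2 fold change 3.07). The lectin pathway protease Masp1 and the collectins Colec11 and Colec12 had log2 fold changes of 0.69, 0.92 and 0.63 and were not called. Cfp, or properdin, which stabilizes the alternative convertase, was at 0.68 and not called, and Cfd, the protease that cleaves factor B, had 0 counts in every library, as had C8a, C8b and C9 of the membrane attack complex. Such a 0 allows up to 3 counts per library. Hc, which encodes C5, had 4 to 9 counts in vehicle and 1 or 2 in β-SITO and was not tested. C7 and C8g were the tested terminal components and both were called higher, at 100 counts or fewer per library, by 1.53 and 1.23 on the log2 scale.

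Of the membrane regulators, which shield host cells, 5 were tested, with 2 called higher and 3 not called, against 12.8% called higher among all tested genes. Cd59a, which blocks the membrane attack complex, rose from 17.8, 16.1 and 15.4 CPM to 37.1, 40.7 and 43.2 CPM (log2 fold change 1.30). Susd4 rose from 4 to 6 counts per vehicle library to 70 to 86 per β-SITO library (log2 fold change 3.68). Cd55, which speeds the decay of convertases, was at 0.32 and Cr1l at -0.59, neither called. Among genes listed as receptors, 3 of 6 tested were called higher, against the same 12.8%. These were C5ar1, C5ar2 (2.81, from 9 to 15 counts up to 93 to 109) and Cd93 (1.86, from 92.0 to 124.2 CPM up to 384.8 to 396.1 CPM). The integrin subunits of the complement receptors CR3 and CR4, Itgam, Itgax and Itgb2, had log2 fold changes of 0.47, 0.68 and 0.63 and were not called.

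**Figure D4:**
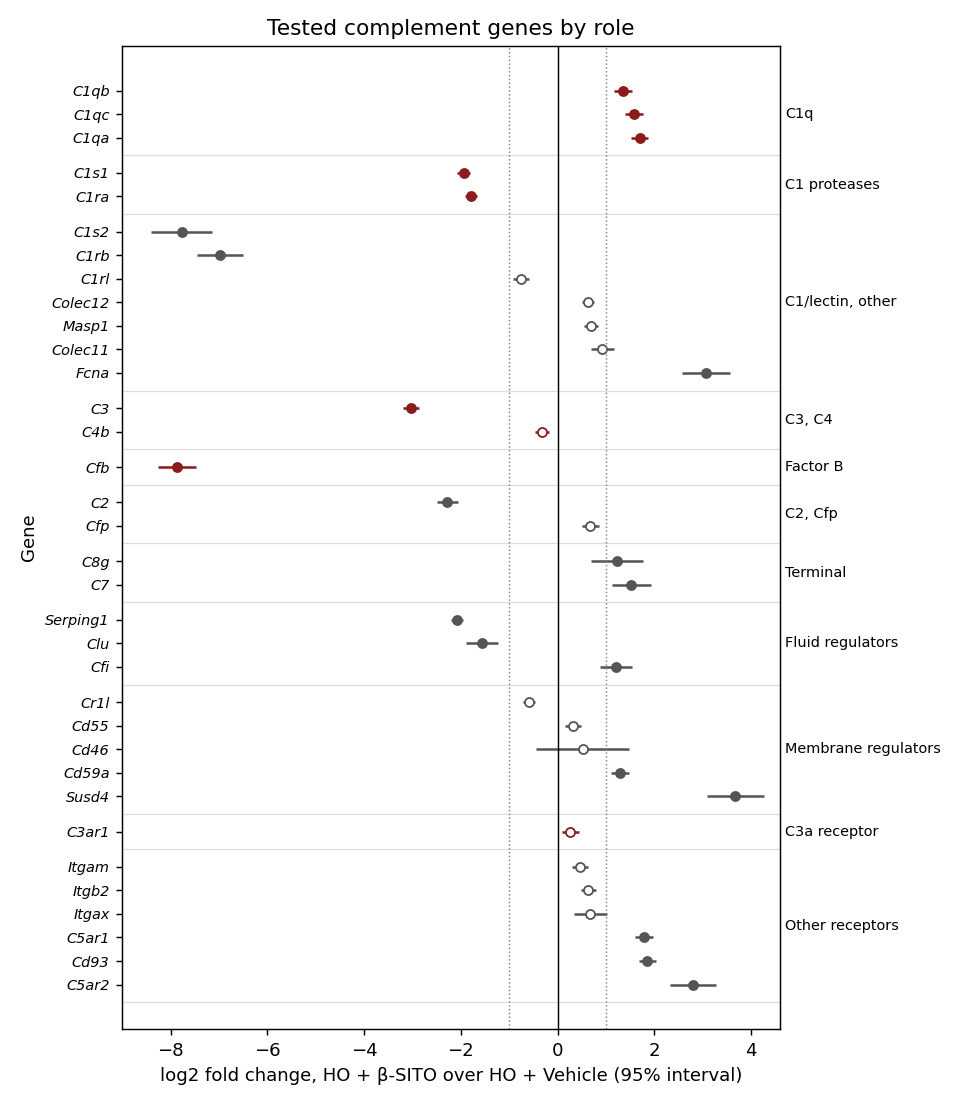
Log2 fold change of HO + β-SITO over HO + Vehicle (x axis) with its 95% interval for the 9 components (red) and other tested complement genes (grey), grouped by role, with filled points for genes called and dotted lines at 2-fold. C1q lies to the right, the C1 proteases and their inhibitor Serping1 to the left, as do C3 and Cfb.

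The 5 genes whose profile over the 6 libraries was most like that of C3 among 9685 genes were Lgals3bp (distance 0.114), Dram1 (0.134), Znfx1 (0.155), Cyp7b1 (0.162) and Trim34a (0.207). All 5 were lower in β-SITO, with log2 fold changes of -3.10 to -2.98, close to that of C3 because of the way they were chosen.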

How the data were processed

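Total RNA was extracted from hypoxic NMCMs, and 6 libraries were sequenced as paired ends on an Illumina platform. The methods name an ABclonal mRNA-seq kit and the sample records an Illumina RNA kit. The authors deposited raw counts of reads per gene for all 6 libraries, with no normalization. The submitters' processing notes name FastQC, HISAT2, featureCounts and the build GRCm39. The annotation release, the strand setting and the treatment of reads that match several genes are not given in the sources used here, so counts of near copies can be split or lost and antisense reads cannot be told apart. The authors called genes with DESeq2, and their thresholds (adjusted p below 0.05, change over 2-fold) were kept.

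From the deposited counts, CPM and fold changes were computed with R 4.3.3, edgeR 4.0.16 (filterByExpr, TMM, quasi-likelihood test with Benjamini-Hochberg adjustment over all 14799 tested genes) and group as the only term. The script was tested on simulated data. DESeq2 1.42.0, limma-voom (limma 3.58.1), glmTreat, other normalizations and filters, adjusted p alone and the removal of each library were alternatives, and the longest coding transcript was added as a length after the data were seen. Ratios between complement genes within a library used counts plus 2, those of summed C1q to macrophage markers used CPM with nothing added, and both were compared by an exact two-sided permutation test over the 6 libraries. Exon lengths came from GENCODE vM21 (GRCm38), matched by gene ID for 107 of 107 genes, and promoters from RefSeq. Coordinates of genes are those of the deposited table. The components and gene lists were chosen with earlier results of these data known. Genes named outside the 9 components were the 4 largest rises and 4 largest falls among called complement genes with at least 50 counts on average, near copies, set regulators and markers, the 5 most similar profiles of genes with at least 10 CPM, and members of the lists picked after their values were seen. A few results that the rule covers were left out of the text and figures.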

Additional observations from a re-analysis of the deposited data

How the results depend on the processing

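No paired analysis was possible because the groups share no replicate numbers. The 4 lower and 3 higher calls among the components held in number under 14 of 15 alternatives, adjusted p alone giving 5 and 4. Leaving out each library in turn gave 4 lower and 3 higher components in every case, 5 lower and 10 to 11 higher genes among the other complement genes, and log2 fold changes of -8.13 to -7.45 for Cfb, -3.11 to -2.97 for C3, 1.60 to 1.79 for C1qa and 0.15 to 0.35 for C3ar1 (0.15 without T4). Adjusted p alone raised the higher other complement genes from 10 to 18. The log2 ratio of C4b to C4a (β-SITO minus vehicle) ranged from -0.36 to 0.28 on leaving out each library, positive without V2 (0.28), T5 (0.11) or T6 (0.02). C4a counts of 2 to 9 limit that ratio. With raw counts, not corrected for length, the shares of C1q in vehicle and β-SITO were 30.8% and 34.5% for C1qa, 38.8% and 34.3% for C1qb, and 30.4% and 31.2% for C1qc. With the longest coding transcript they were 32.7% and 36.6%, 39.3% and 34.7%, and 27.9% and 28.6%. The C1qb share fell and the C1qa share rose in all 3 versions, but a gene's length is the same in every library. These versions are therefore no test of the direction of the shift. Upper-quartile and library-size scaling moved the median log2 fold change of all genes by 0.143 and 0.148 and no component changed its call. The counts of 0 to 4 in β-SITO limit the folds of Cfb, C1rb and C1s2.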
